A study of Mus musculus with 51 samples.

Results

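The genes described here are 10 marrow stromal niche factors, *Cxcl12*, *Kitl*, *Il7*, *Angpt1*, *Vcam1*, *Lepr*, *Pdgfra*, *Pdgfrb*, *Ebf3* and *Foxc1*. They were chosen by name from 23358 entries of the vitamin C (VitC) femur expression data and from 25938 genes of the Tet femur table. All 10 were present in both and passed the filter on low values, *Il7* in the VitC femurs only through WT and VitC+ libraries. Peaks were counted over each gene and 30 kb on each side, for these 10 among 20558 protein-coding genes. The marrow niche for blood precursors is made by stromal cells that lie around the vessels of the bone marrow. These cells secrete the chemokine CXCL12, stem cell factor (encoded by *Kitl*), interleukin 7 and angiopoietin 1, and display the adhesion molecule VCAM1. The leptin receptor and the PDGF receptors mark the stromal cells, and the transcription factors EBF3 and FOXC1 are known to maintain their niche function.

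Femurs of C57BL/6 mice aged 20 weeks were measured by RNA-seq in 3 groups of 3 libraries. WT mice make their own VitC. Mice with 2 inactive *Gulo* alleles (Gulo-/-, tm1Mae) cannot, and were given 3.3 g/L VitC in the drinking water until week 20 (VitC+) or only until week 15 (VitC+/-). A further 12 libraries came from femurs of mice aged 11 weeks that all carried Prrx1-Cre, which is active in early limb mesenchyme and its descendants and not in blood cells. Ctrl mice carried the Cre alone, and *Tet1* (Tet1 cKO), *Tet2* (Tet2 cKO) or both (Tet1/2 cKO) were floxed in the other groups. Marrow had been flushed out and the periosteum removed before extraction. 5-hydroxymethylcytosine (5hmC), the first oxidation product that TET enzymes make from methylated cytosine, was measured by antibody enrichment in femurs of VitC+, VitC+/-, Ctrl and Tet1/2 cKO mice and in MC3T3-E1 cells, a mouse calvarial pre-osteoblast line grown for 28 days with 50 µg/ml VitC (VitC+) or with none (VitC-). The repressive histone marks H3K27me3 and H3K9me3 were measured in MC3T3-E1 cells.

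Several facts of the series bear on these values. WT replicate 1 was shallow, with an estimated 7610000 reads against 31200000 to 47500000 in the other VitC femur libraries. *Gulo* went against the label in 2 libraries, with a scaled RPKM of 0 in the library labelled WT replicate 3 and of 0.238 in the library labelled VitC+ replicate 1, where the other VitC+ and VitC+/- libraries had at most 0.0335. WT replicates 1 and 2 had 0.537 and 0.442, so that *Gulo* was low, below 1, in every VitC femur library. Marrow cells remained in the bone, since the summed scaled RPKM of 6 neutrophil genes was between 3946 and 39008 and that of 10 osteoblast and osteocyte genes between 507 and 7169. In the Tet femurs *Tet1* had 374 to 435 normalized counts in Ctrl, 532 to 773 in Tet1 cKO and 415 to 485 in Tet1/2 cKO. *Tet2* had 2236 to 2512 in Ctrl, 1834 to 2245 in Tet2 cKO and 1851 to 2970 in Tet1/2 cKO. Counts over a whole gene do not check the loss of single exons. Skeletal muscle genes varied widely between the Tet libraries, with sums of 5 genes from 2008 to 1110590 normalized counts. They varied widely between the VitC femur libraries too, from 2.19 scaled RPKM in WT replicate 2 to 653 in VitC+ replicate 2.

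The most widely shared femur 5hmC peaks of these loci differed in whether they held a CpG dinucleotide, the usual site of 5hmC, and 6 of their sequences are shown for that reason. Each holds 201 bases around the summit of the VitC+ femur peak that overlapped the largest number of femur lists at its locus, the strongest such peak where several did. The bases were read from GRCm38 (mm10) on the strand of the gene, with each CpG in capitals.
Cxcl12 upstream peak (chr6:117161273-117161473, plus strand): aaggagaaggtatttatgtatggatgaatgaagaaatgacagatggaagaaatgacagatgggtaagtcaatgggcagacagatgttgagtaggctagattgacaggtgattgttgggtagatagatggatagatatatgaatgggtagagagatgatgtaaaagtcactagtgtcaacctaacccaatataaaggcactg
Pdgfra downstream peak (chr5:75226940-75227140, plus strand): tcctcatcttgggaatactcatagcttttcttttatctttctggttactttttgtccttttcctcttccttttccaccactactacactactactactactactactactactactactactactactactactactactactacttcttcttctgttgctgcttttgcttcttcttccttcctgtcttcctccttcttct
Il7 upstream peak (chr3:7614956-7615156, minus strand): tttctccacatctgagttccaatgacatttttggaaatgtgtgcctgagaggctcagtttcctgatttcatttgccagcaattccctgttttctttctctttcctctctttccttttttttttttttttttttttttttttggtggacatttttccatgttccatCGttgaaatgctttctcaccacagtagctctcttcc
Foxc1 upstream peak (chr13:31805171-31805371, plus strand): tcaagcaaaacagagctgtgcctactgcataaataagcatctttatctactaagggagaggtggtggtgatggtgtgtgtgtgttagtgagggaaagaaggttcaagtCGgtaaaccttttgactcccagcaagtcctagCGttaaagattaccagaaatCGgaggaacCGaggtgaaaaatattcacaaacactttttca
Lepr upstream peak (chr4:101709947-101710147, plus strand): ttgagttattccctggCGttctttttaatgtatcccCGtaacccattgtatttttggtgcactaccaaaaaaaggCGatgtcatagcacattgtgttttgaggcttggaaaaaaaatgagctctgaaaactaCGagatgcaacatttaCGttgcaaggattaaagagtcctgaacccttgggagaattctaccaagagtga
Kitl intron peak (chr10:100093712-100093912, plus strand): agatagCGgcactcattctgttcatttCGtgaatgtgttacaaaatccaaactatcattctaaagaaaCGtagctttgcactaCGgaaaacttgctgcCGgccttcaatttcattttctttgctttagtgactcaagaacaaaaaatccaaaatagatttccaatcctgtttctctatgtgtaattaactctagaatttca
No CpG lay within 100 bases of the *Cxcl12* and *Pdgfra* summits, and *Il7* had 1, *Foxc1* 4 and *Lepr* and *Kitl* 5 each. The *Cxcl12* peak, at -7.16 kb from the start site, was in all 6 lists of 5hmC peaks. Its fold enrichment over local background was 18.5 in VitC+ femurs, 17.4 in VitC+/- femurs, 7.69 in Ctrl femurs, 6.92 in Tet1/2 cKO femurs, 6.68 in MC3T3-E1 cells with VitC and 18.3 in MC3T3-E1 cells without. It was thus the strongest peak of its locus in both VitC femur lists. The *Lepr* peak, at -7.09 kb, was in all 6 lists as well, with folds of 8.64, 7.67, 6.41, 5.19, 12.4 and 5.64 in the same order. The *Foxc1* peak, at -1.38 kb, was in 5 lists and had no counterpart in MC3T3-E1 cells without VitC. The *Kitl* peak, 78.2 kb from the start site, was in the 4 femur lists, and the *Il7* peak, at -1.30 kb, was in the VitC+ and VitC+/- femur lists and in that of MC3T3-E1 cells with VitC. The *Pdgfra* peak, 75.7 kb from the start site, was in 5 lists, and 83.6% of the bases shown are annotated as repeat.

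Promoter windows of 300 bases (RefSeq, GRCm38.p6, 250 before and 50 after the start) were found for 6 of the 10 genes, with 2 windows for *Lepr*, and were not used here for *Il7*, *Vcam1*, *Angpt1* and *Pdgfrb*. The window of *Cxcl12* is shown because a strong 5hmC peak of MC3T3-E1 cells with VitC reached into it.
Cxcl12 promoter (chr6:117168285-117168584, plus strand): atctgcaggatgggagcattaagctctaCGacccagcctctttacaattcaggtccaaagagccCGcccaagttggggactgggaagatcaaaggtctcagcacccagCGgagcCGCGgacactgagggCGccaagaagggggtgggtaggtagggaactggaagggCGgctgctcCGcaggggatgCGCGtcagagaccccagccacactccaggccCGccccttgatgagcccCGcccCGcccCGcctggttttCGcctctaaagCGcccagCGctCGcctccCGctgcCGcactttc
It held 20 CpG, in capitals, and 5 copies of the GC box GGGCGG on either strand, a motif that 35.7% of all 32851 promoter windows held. CpG numbers in the other windows were 46 for *Ebf3*, 32 for *Foxc1*, 28 for *Kitl*, 18 and 13 for *Lepr* and 5 for *Pdgfra*, against a median of 7 over all windows. Neither an EBF motif (TCCC and GGGA with any 2 bases between, in 0.904% of all windows) nor a forkhead motif (TGTTTAC, in 3.65%) was found on either strand of the 7 windows.

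Among the secreted niche factors, *Kitl* rose and *Il7* fell in VitC+/- femurs against VitC+ femurs, and both did so against WT femurs. *Il7* entered these tests only through WT and VitC+ libraries, where it was higher, and the counts of genes that passed below include it. *Cxcl12*, the most abundant of the 10 by length-corrected level, and *Angpt1* passed the test in neither comparison. Against WT, *Pdgfra*, *Pdgfrb* and *Ebf3* rose too. Of the 10 genes 2 passed an adjusted p of 0.05 (limma, Benjamini-Hochberg over all 12586 genes tested) against VitC+, where 13.4% of all genes passed (5.93% higher and 7.52% lower), and 5 passed against WT, where 31.3% of all genes did (15.3% higher and 15.9% lower). The share against VitC+ was thus near that of all genes, and both calls there were lost when any 1 VitC+ or VitC+/- library other than VitC+/- replicate 3 was left out, and without the 2 libraries whose *Gulo* level went against their label. Osteoblast and osteocyte genes fell against VitC+ as well, 5 of 10 with a list median of -1.56. Fibroblast genes (2 of 4 called, median -1.85), megakaryocyte genes (2 of 6, -0.90) and neutrophil genes (1 of 6, -1.09) fell too. Adipocyte genes had a median of 1.59 with 0 called, and erythroid genes a median of 0.74 with 1 of 5 called higher. The part of these cells in the values of the niche factors was not tested. In whole bone, fewer cells of a type and less RNA per cell cannot be told apart.

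**Figure D1:**
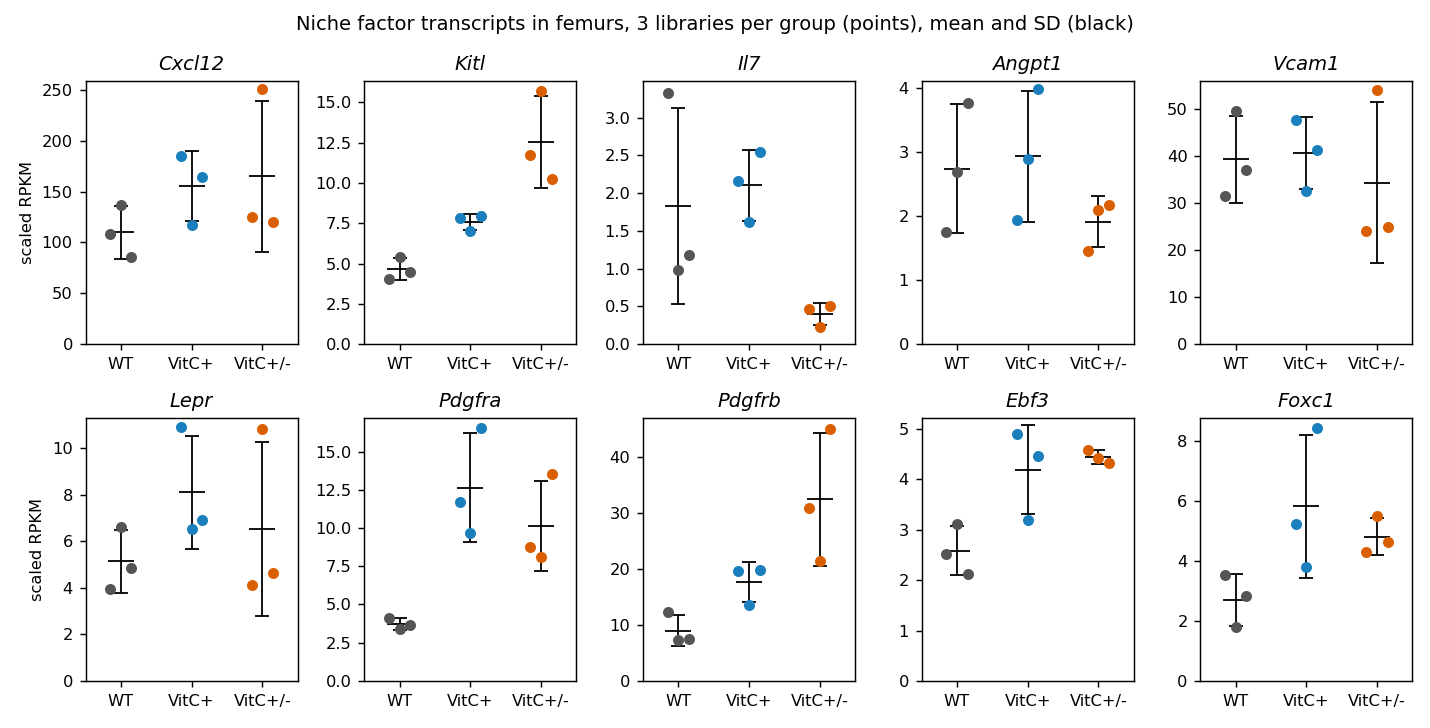
Scaled RPKM (vertical axes) of the 10 niche factors in 3 WT, 3 VitC+ and 3 VitC+/- femur libraries, 1 point per library, with the mean and SD in black. The 3 groups of Kitl do not overlap, the VitC+/- points of Il7 lie at or below 0.503, and 1 VitC+/- library stands high in Cxcl12, Vcam1 and Lepr.

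*Kitl*, whose product binds KIT on blood stem cells, had scaled RPKM values (RPKM after each library was scaled by the median of its ratios to the other libraries) of 4.07, 5.41 and 4.48 in WT, 7.85, 7.03 and 7.94 in VitC+, and 11.7, 15.7 and 10.2 in VitC+/- femurs. The 3 groups did not overlap, and every VitC+/- library lay above every other library. The difference of VitC+/- from VitC+ was 0.67 ± 0.18 (SE, n = 3 per group) on the log2(scaled RPKM + 0.5) scale, with an adjusted p of 0.0410 (limma). Against WT it was 1.33 ± 0.18 with an adjusted p of 0.00140 (limma). WT lay below VitC+ by a similar step, with a log2 difference of -0.66 ± 0.18 that did not pass (adjusted p = 0.107, limma).

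*Il7*, the cytokine on which B-cell precursors depend, had scaled RPKM values of 3.33, 0.985 and 1.18 in WT, 2.16, 1.61 and 2.55 in VitC+, and 0.472, 0.233 and 0.503 in VitC+/- femurs. All VitC+/- libraries lay below all others, and these low levels rested on an estimated 28 to 90 reads per library. Before scaling they were 0.485, 0.246 and 0.527 RPKM, so that *Il7* passed the filter at 1 RPKM only through WT and VitC+ libraries. The log2 difference was -1.53 ± 0.35 (SE) against VitC+ (adjusted p = 0.0250, limma) and -1.25 ± 0.35 against WT (adjusted p = 0.0259, limma). A pseudocount of 0.5 understates the change of so low a gene, and with 0.1 the difference from VitC+ was -2.16. B-cell precursor genes fell in the same comparisons. Of 8 such genes 7 fell in each (7.52% of all genes against VitC+ and 15.9% against WT), and 1 stood higher without passing. *Dntt* (-3.12) and *Igll1* (-3.83 on the log2 scale) were among those that fell against VitC+ (adjusted p = 0.00297 and 0.0116, limma). The median of the 8 genes there was -2.44 beside 0.02 over all genes. Their summed scaled RPKM was 8.65 to 15.8 in VitC+/-, 45.3 to 89.8 in VitC+ and 25.5 to 99.2 in WT femurs, so that VitC+/- lay below both other groups here too. *Il7r*, the receptor, differed by -0.23 ± 0.25 from VitC+ (adjusted p = 0.578, limma). The part of these cells in the fall of *Il7* was not tested.

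**Figure D2:**
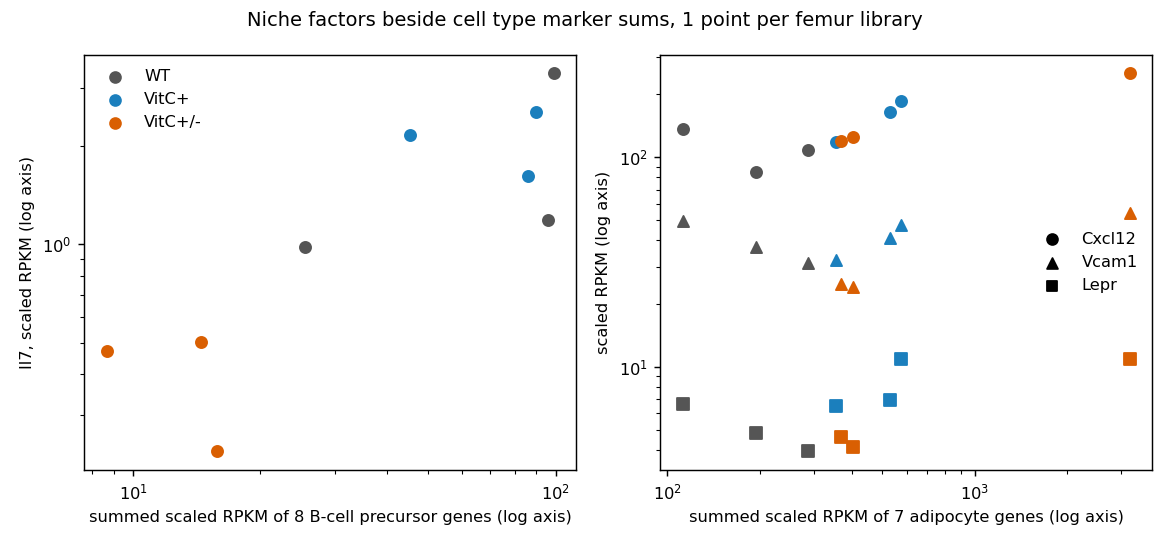
Scaled RPKM of Il7 against the summed scaled RPKM of 8 B-cell precursor genes (left), and of Cxcl12, Vcam1 and Lepr against the sum of 7 adipocyte genes (right), 1 point per femur library and gene, all axes logarithmic. The 3 VitC+/- libraries lie lowest on both axes at left, and at right 1 VitC+/- library lies far from the rest with an adipocyte sum of 3200.

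*Cxcl12*, the chemokine that retains blood stem cells and B-cell precursors in marrow, had scaled RPKM values of 108, 137 and 85.2 in WT, 185, 117 and 164 in VitC+, and 125, 250 and 120 in VitC+/- femurs. VitC+/- overlapped both other groups, and VitC+/- replicate 2 alone exceeded the VitC+ range. The log2 difference was 0.02 ± 0.31 (SE) from VitC+ (adjusted p = 0.968, limma) and 0.52 ± 0.31 from WT (adjusted p = 0.220, limma). *Vcam1*, which holds precursor cells by binding integrin alpha4 beta1, and *Lepr*, the leptin receptor of perivascular stroma, were high in the same library. *Vcam1* was at 24.1, 54.0 and 24.8 and *Lepr* at 4.14, 10.8 and 4.63 in VitC+/- femurs, whereas VitC+ femurs ranged from 32.5 to 47.7 and from 6.53 to 10.9 and WT femurs from 31.4 to 49.4 and from 3.95 to 6.63. *Vcam1* differed by -0.32 ± 0.31 and *Lepr* by -0.38 ± 0.35 from VitC+ (adjusted p = 0.518 and 0.497, limma), and by -0.27 and 0.22 from WT (adjusted p = 0.533 and 0.657, limma).

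Genes of fat cells were high in the library that stood apart. The summed scaled RPKM of 7 adipocyte genes was 3200 in VitC+/- replicate 2, 403 and 366 in the other VitC+/- libraries and 112 to 577 in the WT and VitC+ libraries. The sum of 10 stromal cell markers, which include *Adipoq* and *Lpl* that fat cells also make, was 1421 against 598 and 681. Without this library the log2 differences from VitC+ were -0.32 for *Cxcl12*, -0.70 for *Vcam1* and -0.78 for *Lepr* (adjusted p = 0.426, 0.0818 and 0.0984, limma). *Angpt1*, a ligand of the receptor TEK of vessel and blood stem cells, ranged from 1.46 to 2.18 in VitC+/-, 1.94 to 3.98 in VitC+ and 1.76 to 3.77 in WT femurs. These groups overlapped, and the differences of -0.48 ± 0.29 from VitC+ and -0.39 ± 0.29 from WT did not pass (adjusted p = 0.301 and 0.339, limma).

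The receptors of platelet-derived growth factors were further from WT than from VitC+. *Pdgfrb*, the receptor of pericytes and stroma, was at 12.3, 7.29 and 7.46 in WT, 19.7, 13.6 and 19.8 in VitC+ and 30.9, 21.5 and 45.2 in VitC+/- femurs. The 3 groups did not overlap and stood in the order WT, VitC+, VitC+/-, as for *Kitl*. The rise against WT was 1.77 ± 0.29 (SE; adjusted p = 0.00290, limma), while the difference of 0.82 ± 0.29 from VitC+ did not pass (adjusted p = 0.0918, limma). Without VitC+/- replicate 2 the latter was 1.08 and passed (adjusted p = 0.0455, limma).

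*Pdgfra*, a marker of mesenchymal progenitors, was at 4.11, 3.38 and 3.64 in WT, 11.7, 9.65 and 16.6 in VitC+, and 8.79, 8.11 and 13.5 in VitC+/- femurs. The WT libraries lay below all Gulo-/- libraries, while VitC+ and VitC+/- overlapped. *Pdgfra* rose by 1.31 ± 0.24 (SE) in VitC+/- against WT (adjusted p = 0.00415, limma) and stood at -0.31 ± 0.24 against VitC+ (adjusted p = 0.413, limma).

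The transcription factors had the pattern of *Pdgfra*. *Ebf3* was at 2.53, 3.11 and 2.13 in WT, 4.91, 3.20 and 4.47 in VitC+, and 4.59, 4.43 and 4.33 in VitC+/- femurs. *Foxc1* was at 3.52, 1.79 and 2.82 in WT, 5.23, 3.80 and 8.45 in VitC+, and 4.31, 5.49 and 4.64 in VitC+/- femurs. For both genes every WT library lay below every VitC+ and VitC+/- library. Against WT the log2 difference of VitC+/- was 0.69 ± 0.19 (SE) for *Ebf3*, which passed (adjusted p = 0.0232, limma), and 0.76 ± 0.29 for *Foxc1*, which did not (adjusted p = 0.0733, limma). Against VitC+ it was 0.09 ± 0.19 and -0.19 ± 0.29 (adjusted p = 0.769 and 0.690, limma).

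The groups did not overlap for 3 of the 10 genes against VitC+ (*Kitl*, *Il7* and *Pdgfrb*), as for 40.5% of all genes, and for 6 against WT, as for 42.7% of all genes. WT femurs compared with VitC+ femurs gave no call, neither among the 10 genes nor among the 12586 tested (0% with limma, and 2769 or 22.0% at an unadjusted p under 0.05). All 10 niche factors were lower in WT by the fit, with a median log2 difference of -0.60 beside 0.04 over all genes. *Kitl*, *Pdgfra*, *Pdgfrb*, *Ebf3* and *Foxc1* had WT libraries that all lay below VitC+, as did 14.5% of all genes. *Pdgfra* was furthest apart, at -1.61 ± 0.24 (SE; adjusted p = 0.0679, limma). *Pdgfrb* was at -0.95, *Ebf3* at -0.60 and *Foxc1* at -0.95, with adjusted p between 0.126 and 0.135 (limma). Osteoblast and osteocyte genes stood lower in WT as well, 10 of 10 by the fit with a median of -1.71 and 0 called. So did 10 of 10 stromal cell markers (median -0.55) and 9 of 9 other niche factors tested (-0.70). Endothelial (6 of 6, -0.88), pericyte and smooth muscle (6 of 6, -0.88) and adipocyte genes (7 of 7, -1.11) were lower too. Neutrophil genes were higher (6 of 6, 0.88), and 0 were called in each list. The part of these cells in the values of the 10 genes was not tested.

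**Figure D3:**
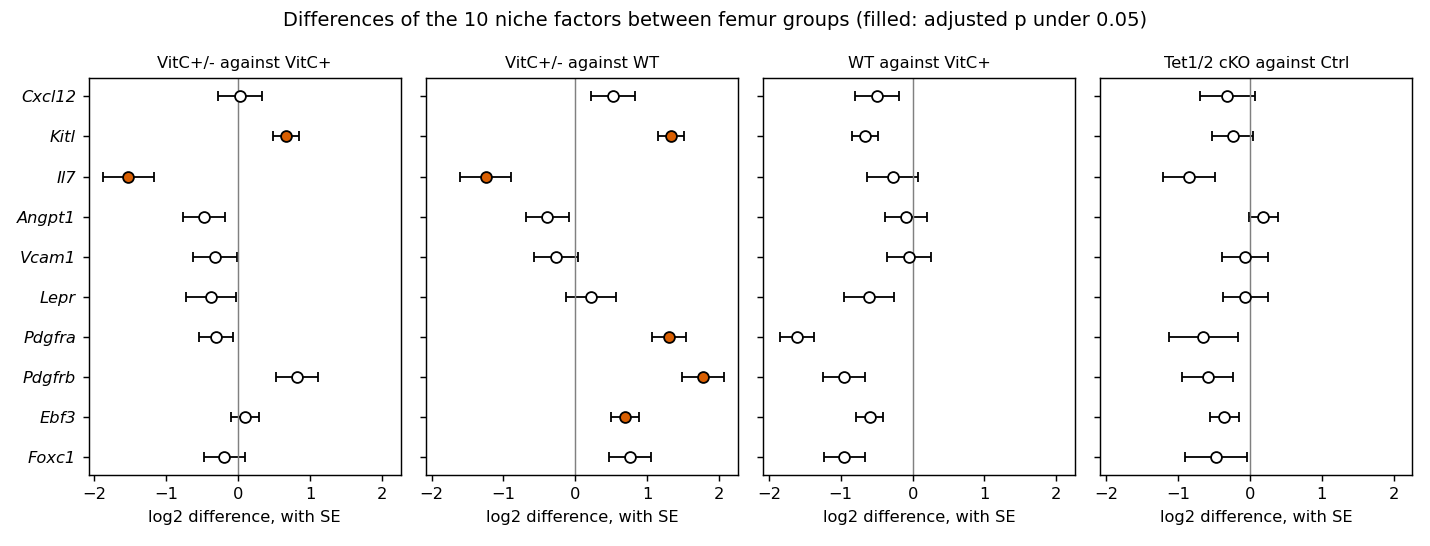
Log2 difference of each niche factor with its SE in 4 comparisons of femur groups, 3 libraries per group, with filled points for an adjusted p under 0.05 (limma). Kitl and Il7 are filled against VitC+, 5 genes are filled for VitC+/- against WT, and none is filled for WT against VitC+ or for Tet1/2 cKO against Ctrl.

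Several of these calls were lost when 1 library was left out. In the 5 fits against VitC+ that lost both calls, the differences were between 0.50 and 0.71 for *Kitl* and between -1.67 and -1.38 for *Il7*. VitC+ replicate 2 was the lowest of its group in 9 of the 10 genes. Its osteoblast and osteocyte sum was 3471 scaled RPKM, against 7169 and 5883 in the other VitC+ libraries. Against WT, *Kitl*, *Pdgfra* and *Pdgfrb* passed whichever library was left out. *Il7* did not pass without VitC+/- replicate 1 or 2 (adjusted p = 0.0606 and 0.0693, limma), nor *Ebf3* without WT replicate 3 or VitC+/- replicate 1 or 3 (adjusted p = 0.0909, 0.0743 and 0.0503, limma), and *Foxc1* passed without WT replicate 1 (adjusted p = 0.0471, limma). With only the VitC+/- and WT libraries in the fit *Il7* did not pass (adjusted p = 0.0545, limma), nor did *Ebf3* with quantile normalization (adjusted p = 0.0639, limma). Without both libraries whose *Gulo* level went against their label, 0 of the 10 genes passed against VitC+, where *Kitl* stood at 0.69 and *Il7* at -1.53 (adjusted p = 0.158 and 0.111, limma), and *Kitl*, *Pdgfra* and *Pdgfrb* passed against WT.

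The receptors and ligands that pair with these factors were tested in the same way. Of 16 such partners and paralogs 13 passed the filter and 2 passed the test against VitC+ (13.4% of all genes), with a median of 0.11 beside 0.02 over all genes. *Pdgfb*, a ligand of PDGFRB that vessel cells secrete, rose by 0.67 ± 0.18 (SE; adjusted p = 0.0369, limma) and *Pdgfd*, another ligand of that receptor, fell by 1.00 ± 0.24 (adjusted p = 0.0289, limma). Against WT 4 passed (31.3% of all genes), with a median of 0.62 beside 0.01 over all genes. *Pdgfb* rose by 1.63, *Angpt2*, the second ligand of TEK, by 1.34 and *Foxc2*, the paralog of *Foxc1*, by 2.18, and *Cxcr4*, the receptor of CXCL12, fell by 0.65 on the log2 scale (adjusted p = 0.000533, 0.00196, 0.00573 and 0.0487, limma). *Kit*, the receptor of stem cell factor, differed by 0.58 ± 0.37 from VitC+ (adjusted p = 0.317, limma), and the summed scaled RPKM of 6 blood stem and progenitor genes was 35.8 to 46.9 in VitC+/- femurs and 41.1 to 45.9 in VitC+ femurs.

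Other genes of the niche were also tested. Among 10 other niche factors 9 passed the filter and 0 passed the test against VitC+ with limma (2 at an unadjusted p under 0.05), while 3 passed against WT (31.3% of all genes), where *Csf1*, the macrophage growth factor, rose by 1.30, the Notch ligand *Jag1* by 1.44 and *Bmp4*, a bone morphogenetic protein, by 1.40 (adjusted p = 0.00702, 0.0154 and 0.00251, limma). Of the 10 stromal cell markers 0 passed against VitC+ with limma (2 at an unadjusted p under 0.05) and 4 rose against WT (15.3% of all genes), *Lpl* by 2.06, *Gas6* by 1.48, *Igfbp4* by 0.92 and *Cxcl14* by 2.15 (adjusted p = 0.0117, 0.0172, 0.00953 and 0.0343, limma). Markers of other cells moved in that comparison as well. Of 6 endothelial genes 4 rose with a list median of 0.70, of 6 pericyte and smooth muscle genes 2 rose with a median of 1.06, 6 of 6 neutrophil genes fell with a median of -1.98, and 5 of 7 adipocyte genes rose with a median of 2.69. Their part in the rise of stromal genes against WT was not tested.

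The 10 genes did not vary as a block. Over their 45 pairs, Pearson's r of the log2 levels ran from -0.72 (*Kitl* and *Il7*) to 0.86 (*Pdgfra* and *Foxc1*) across the 9 VitC femur libraries, with a median of 0.31. In the 12 Tet femur libraries it ran from -0.52 to 0.88 with a median of 0.46. *Pdgfra* with *Ebf3* (0.82 and 0.82), *Pdgfra* with *Pdgfrb* (0.79 and 0.88) and *Cxcl12* with *Lepr* (0.84 and 0.79) were high in both sets. These values describe libraries that share group differences and tissue makeup. The genes most like *Cxcl12* over the 9 libraries were *C4b* (0.94), *Il34* (0.93) and *Rarres2* (0.93), with r of 0.56, 0.67 and 0.22 in the Tet libraries. For *Kitl* they were *Cul9* (0.99), *Igsf3* (0.98) and *Zhx3* (0.98), with 0.54, 0.59 and 0.61 in the Tet libraries. For *Lepr* they were *Ccbl1* (0.91), *Pde4a* (0.90) and *Gimap5* (0.89), the latter 2 with 0.14 and 0.66 in the Tet libraries.

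Loss of TET enzymes in the limb mesenchyme gave no call among the niche factors. In Tet1/2 cKO against Ctrl femurs 0 of 16780 genes passed with limma (0%; 847 or 5.05% at an unadjusted p under 0.05), edgeR called 0 (778 at an unadjusted p under 0.05) and DESeq2 called 10, and none of the 10 niche factors was called by any of these tools. By the fit 9 of the 10 were lower, with a median log2 difference of -0.33 beside -0.01 over all genes. The stromal cell markers were lower too (10 of 10, median -0.35). So were 9 of 10 other niche factors (-0.66) and 12 of 16 partners and paralogs (-0.45), with 0 called in each list. For *Il7*, *Pdgfra*, *Pdgfrb* and *Ebf3* every Tet1/2 cKO library lay below every Ctrl library, as for 10.0% of all genes.

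*Il7* had 191, 228 and 211 normalized counts in Ctrl and 108, 86.7 and 167 in Tet1/2 cKO femurs. The log2 difference was -0.84 ± 0.36 (SE, n = 3 per group) with an unadjusted p of 0.0405 and an adjusted p of 0.723 (limma). *Pdgfrb* had 4564, 4594 and 4917 normalized counts in Ctrl and 2624, 3268 and 3532 in Tet1/2 cKO femurs, a difference of -0.59 ± 0.36 (adjusted p = 0.723, limma). *Pdgfra* had 3740, 4709 and 4051 against 1980, 3424 and 2733, and *Ebf3* 1678, 1987 and 1890 against 1446, 1355 and 1534, with differences of -0.65 ± 0.48 and -0.36 ± 0.20 (adjusted p = 0.723 for both, limma). These 4 genes were thus apart between the groups without passing the test. *Cxcl12* overlapped, with 96014, 56369 and 81510 normalized counts in Ctrl and 58567, 61887 and 63602 in Tet1/2 cKO femurs (-0.31 ± 0.38; adjusted p = 0.799, limma). *Kitl* (-0.24), *Vcam1* (-0.07), *Lepr* (-0.06) and *Foxc1* (-0.47) overlapped too, with adjusted p between 0.751 and 0.952 (limma).

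*Angpt1* was the 1 niche factor that stood higher in Tet1/2 cKO femurs by the fit, with 2306, 2015 and 1909 normalized counts against 1610, 2197 and 1708 in Ctrl (0.18 ± 0.20; adjusted p = 0.779, limma). In Tet2 cKO femurs it had 1277, 1239 and 1244, all below Ctrl, and in Tet1 cKO femurs 1721, 1908 and 1132. The interaction, which compares the effect of losing *Tet1* between femurs without and with *Tet2*, was 0.96 ± 0.29 (SE) with an unadjusted p of 0.00638 and an adjusted p of 0.460 (limma), in a contrast where 10.8% of genes had an unadjusted p under 0.05 and 0.0119% were called. In the single knockouts 0 of the 10 genes were called (0.0119% of all genes in each), with adjusted p of 1.00 (limma) throughout. At an unadjusted p under 0.05 stood 0 of the 10 in Tet1 cKO (2.28% of all genes) and 1, *Angpt1*, in Tet2 cKO (2.19% of all genes). None of the 10 was apart from Ctrl in Tet1 cKO femurs, as 7.82% of all genes were, and *Angpt1* alone in Tet2 cKO femurs, as 5.97% of all genes were.

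Tet2 cKO replicate 2 was the lowest of its group in 9 of the 10 genes, and its osteoblast and osteocyte sum was 151847 against 666755 and 1042600 normalized counts in the other Tet2 cKO libraries. Osteoblast and osteocyte genes had a median difference of -1.21 in Tet1/2 cKO against Ctrl femurs (9 of 10 lower by the fit, 0 called), endothelial genes of -0.61 and pericyte and smooth muscle genes of -0.98 (6 of 6 lower in each, 0 called). Chondrocyte genes had a median of -2.97 (4 of 4 tested lower), skeletal muscle genes of -3.89 (5 of 5 lower) and adipocyte genes of -0.76 (7 of 7 lower), whereas neutrophil genes had 0.64 (6 of 6 higher) and erythroid genes 0.44 (5 of 5 higher), with 0 called in each. Their part in the lower values of the niche factors was not tested.

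**Figure D4:**
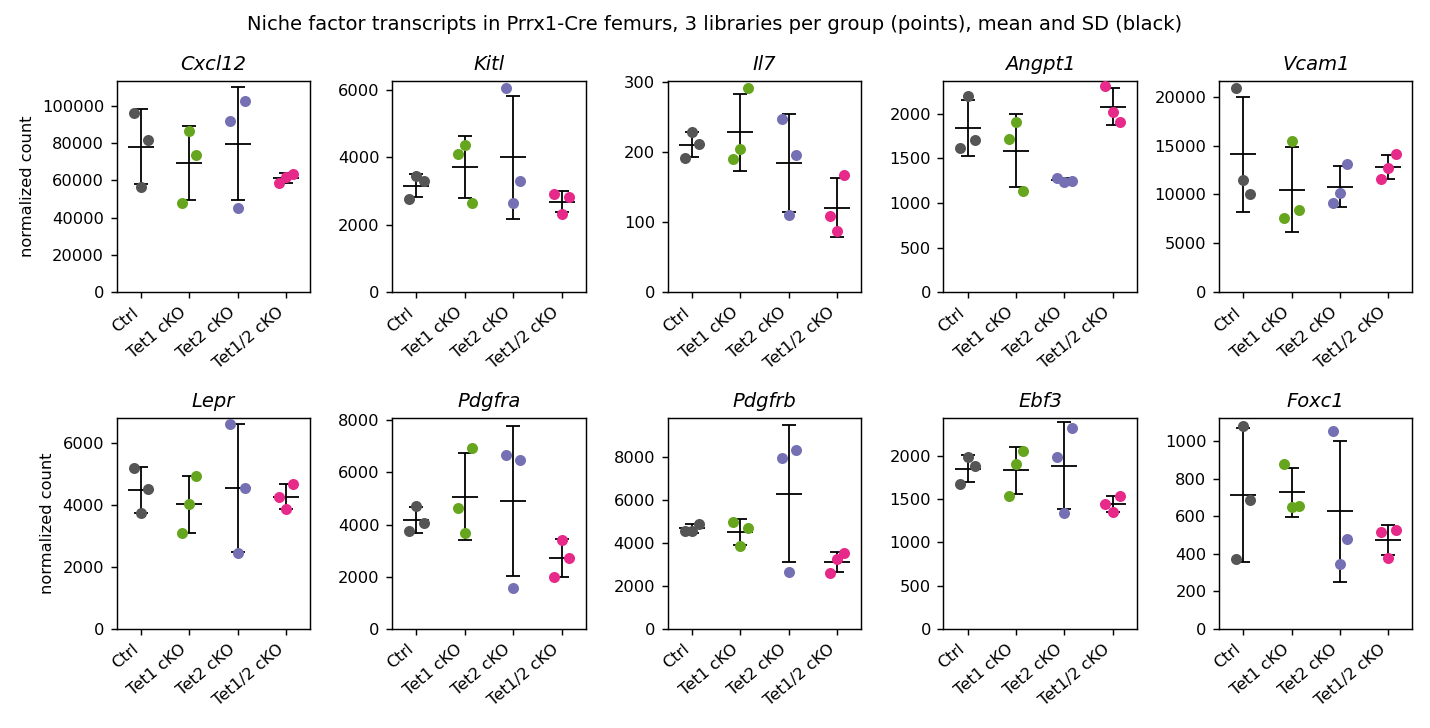
Normalized counts (vertical axes) of the 10 niche factors in 3 femur libraries of each Tet group and of Ctrl, 1 point per library, with the mean and SD in black. Il7, Pdgfra, Pdgfrb and Ebf3 lie below Ctrl in all Tet1/2 cKO libraries, and the 3 Tet2 cKO points of Angpt1 lie together below Ctrl.

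The 5hmC of these loci was compared by the length that peaks cover, from 1 list per group and therefore with no replicate and no test. The femur lists of VitC+/- and VitC+ mice were compared first. The median log2 ratio over the 10 loci was -0.05 beside -0.10 over all genes, with 0 loci past 1.5-fold lower (7.26% of all genes) and 1 past 1.5-fold higher (11.4% of all genes). That locus was *Il7*, covered over 11997 bp by 25 peaks in VitC+/- and over 7413 bp by 18 peaks in VitC+ femurs, a log2 ratio of 0.63, while its transcript was lower. Of these peaks 8 of 25 and 4 of 18 had no CpG within 100 bases of the summit, and with CpG-bearing peaks alone the ratio was 0.54, no longer past the limit. It was not past the limit either with the same number of peaks from both lists (0.55) or with peaks within 30 kb of the start site (0.50). With CpG-bearing peaks alone 0 loci were past 1.5-fold higher (7.30% of all genes) and 1, *Pdgfra* at -0.62, was past 1.5-fold lower (12.7% of all genes), and the median was -0.23 beside -0.20 over all genes. *Kitl*, whose transcript rose, was covered over 34691 and 39089 bp (-0.17). A peak at -0.515 kb from the *Kitl* start (in VitC+) was in all 4 femur lists, with a fold of 9.43 in VitC+/-, 8.34 in VitC+, 5.59 in Ctrl and 3.80 in Tet1/2 cKO femurs. *Ebf3* was at 0.51, *Pdgfra* at -0.46 and *Foxc1* at -0.38, and the other loci were between -0.12 and 0.33.

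In Tet1/2 cKO femurs all 10 niche loci were past 1.5-fold lower in 5hmC coverage, as were 76.4% of all genes. The median log2 ratio was -1.21 beside -1.04 over all genes, and the lists covered 123 and 273 Mb in all. *Vcam1* was lowest, with 3783 bp against 18244 bp in Ctrl (-2.01), followed by *Angpt1* with 2161 against 9591 bp (-1.74). *Cxcl12* had 7228 against 17405 bp and *Pdgfra* 16723 against 44426 bp. *Foxc1* was least reduced and just past the limit, with 17668 against 27078 bp (-0.59). With the same number of peaks taken from both lists 7 of the 10 were past 1.5-fold lower, and the median was -0.88 beside -0.60 over all genes. The share of all genes past 1.5-fold was not counted at that setting.

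In MC3T3-E1 cells 5hmC peaks covered less length without VitC than with VitC at part of the niche loci. The median log2 ratio was -0.75 beside -0.50 over all genes, with 6 loci past 1.5-fold lower (47.7% of all genes) and 1 higher (29.3% of all genes). *Foxc1* was covered by 19 peaks over 20467 bp with VitC and by 4 peaks over 1419 bp without (-3.15). *Pdgfra* had 25149 and 5459 bp (-2.02), *Pdgfrb* 35528 and 9849 bp (-1.75) and *Vcam1* 17167 and 5139 bp (-1.57). *Cxcl12* (-0.83) and *Kitl* (-0.68) were lower as well. The peak that reached 143 bp into the *Cxcl12* promoter printed above had a fold of 15.6 in cells with VitC and no counterpart over that window in cells without, whereas the *Pdgfra* promoter window had a peak in both lists, with a fold of 8.90 with VitC and 15.8 without. Peak folds could thus go against the covered length, as at the *Cxcl12* peak at -7.16 kb (6.68 with VitC and 18.3 without).

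*Angpt1* went the other way in these cells, from 6 peaks over 2472 bp with VitC to 28 peaks over 12514 bp without (1.96). Of the 28 peaks 17 had no CpG within 100 bases of the summit, and of the 6 peaks 0. Such peaks made up 29.6% of the whole list without VitC and 1.22% of that with VitC, and at the 10 loci 49 of 154 against 3 of 212 peaks. With CpG-bearing peaks alone, a choice made after seeing the data, *Angpt1* was at 0.63, *Ebf3* moved from -0.17 to -1.30 and the median of the 10 from -0.75 to -1.20, beside -0.76 over all genes. In the femur lists the share without a CpG was 25.7% in VitC+/-, 15.8% in VitC+, 4.51% in Ctrl and 6.52% in Tet1/2 cKO.

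**Figure D5:**
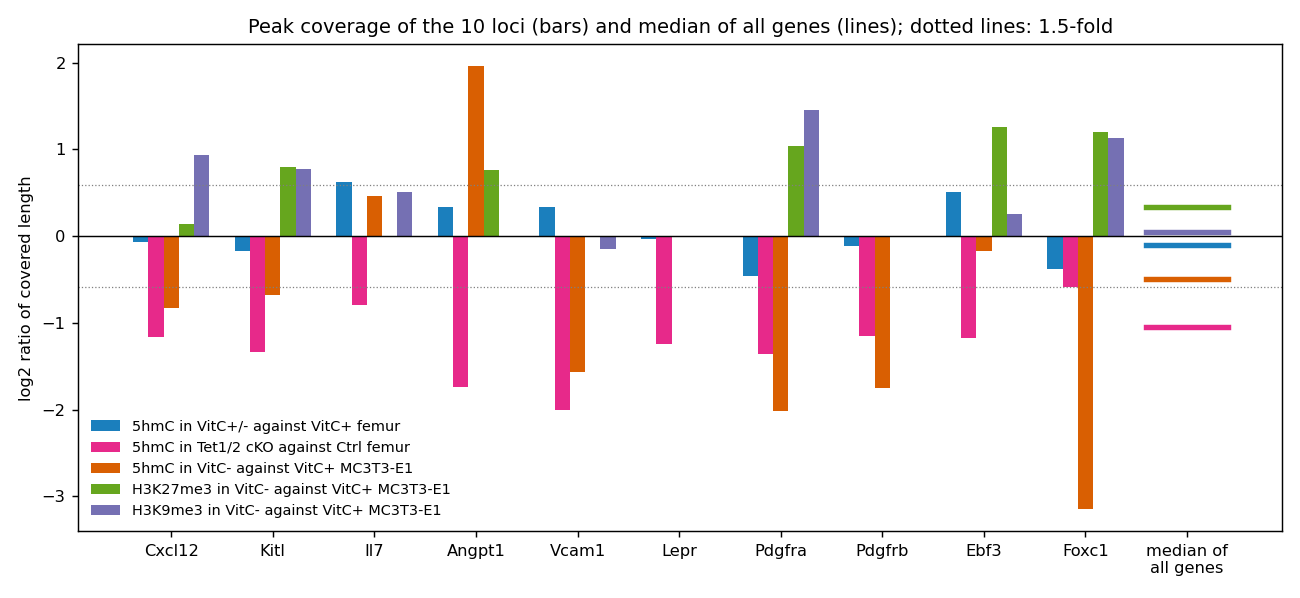
Log2 ratio of the length covered by peaks (vertical axis) at each of the 10 loci for 5 pairs of peak lists, with the median over all genes as lines at right and dotted lines at 1.5-fold. For Tet1/2 cKO femurs the bars reach past the lower dotted line at all 10 loci, Foxc1 just so, and the 5hmC bar of MC3T3-E1 cells is lowest at Foxc1 and highest at Angpt1.

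Repressive histone marks were found at part of the loci. H3K27me3, the Polycomb mark, had no peak in either list at *Il7*, *Vcam1*, *Lepr* and *Pdgfrb*. It covered more length without VitC at 5 loci past 1.5-fold (37.6% of all genes), *Ebf3*, *Foxc1*, *Pdgfra*, *Kitl* and *Angpt1*, the last by 1 peak of 694 bp. *Ebf3* was covered over 114750 bp without VitC and 47190 bp with VitC, which is 60.7% and 25.0% of its window, though by fewer peaks, 26 against 38. *Pdgfra* was covered over 12596 and 5611 bp and *Foxc1* over 3895 and 1133 bp. *Cxcl12* was covered over long stretches in both states, 31461 and 28423 bp. H3K9me3, the mark of constitutive heterochromatin, was past 1.5-fold higher without VitC at 4 loci (31.3% of all genes), *Cxcl12*, *Kitl*, *Pdgfra* and *Foxc1*, with at most 2464 bp at each. The median log2 ratio of the 10 loci was 0.45 beside 0.34 over all genes for H3K27me3, and 0.38 beside 0.05 for H3K9me3. With peaks of a −log10 q of at least 2 alone, 3 loci were past 1.5-fold higher for H3K27me3 and 1 for H3K9me3. For H3K9me3 2 others were past it in the lower direction, *Ebf3* at -3.29 and *Il7* at -2.13. The share of all genes was not counted at that setting. Medians there were 0 beside 0.32 over all genes for H3K27me3, and 0 beside 0 for H3K9me3. An H3K9me3 peak of cells with VitC, with a fold of 3.56, spanned the whole *Ebf3* promoter window. The labels give day 28 of culture for the histone samples and the methods day 7, so these may differ in time from the 5hmC samples.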

How the data were processed

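The authors deposited RPKM per gene for the VitC femurs and normalized counts, a signal of gene counts divided by 1 size factor per library, for the Tet femurs. Per the labels, reads were aligned to mm10 with STAR 2.6.0b-1 and counted with featureCounts 1.6.3. The study's methods name Cufflinks for FPKM values, and whether it made the deposited RPKM values is not stated. The authors called peaks with MACS2 after BWA 0.7.15.1, and the deposited lists give the fold enrichment (a ratio to local background) and −log10 p and q values. There is 1 list per group, with replicates pooled for 5hmC, and femur 5hmC lists of VitC groups hold chromosomes 1 to 19.

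Each VitC library was scaled by the median of its ratios to the geometric mean. The filter kept genes that reached 1 RPKM (or 10 normalized counts) in 3 or more libraries. limma 3.58.1 (eBayes with trend) was fitted to log2(value + 0.5), or + 1 for the Tet table, over all 9 or 12 libraries, and an adjusted p (Benjamini-Hochberg) under 0.05 counted as a call. Whole reads were recovered from the Tet table (100% of values within 0.01 reads of a whole number, 28597536 to 49788434 per library) and tested with edgeR 4.0.16 and DESeq2 1.42.0 as alternatives. Covered lengths were compared over each RefSeq gene and 30 kb on each side after adding 1000 bp, with 1.5-fold as a descriptive limit. The steps were tested on simulated data. All 10 genes are described in every comparison, and of the partner, niche and stromal lists those genes that passed. The genes and lists were chosen with earlier results of these data known. The study's methods describe the animals as independent. Leaving out both libraries with a *Gulo* level against their label, CpG-bearing peaks alone and equal numbers of peaks were alternatives chosen after seeing the data.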

Additional observations from a re-analysis of the deposited data

How the results depend on the processing

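The number of niche factors past the threshold against VitC+ was 2. It was 1 without scaling (876 genes called in all, with the median of all genes at 0.13 instead of 0.02) and 1 without the filter on low values. Leaving out 1 library at a time gave 0 to 2 against VitC+, 3 to 6 against WT and 0 to 1 for WT against VitC+ (*Pdgfra*, without WT replicate 1). Against WT it was 4 instead of 5 with quantile normalization, where *Ebf3* was lost, and with only the groups compared in the fit, where *Il7* was lost. Leaving out both libraries whose *Gulo* level went against their label, an alternative chosen after seeing the data, gave 0 and 3, with 253 and 1649 genes called in all. Same-numbered libraries of different groups had r from -0.19 to 0.46 in VitC femurs, with a median of 0.09 against -0.07 for different numbers. In Tet femurs r ran from -0.57 to 0.53, with a median of -0.16 against 0.11. Whether the numbers pair the libraries cannot be told from these values. With the replicate number as a block, 3, 5 and 2 niche factors passed in these comparisons (2169, 4465 and 774 genes in all), *Pdgfrb* being added against VitC+ and *Pdgfra* and *Pdgfrb* for WT against VitC+. Leaving out 1 library also moved the number of all genes called, from 1692 to between 487 and 1306 against VitC+, from 3934 to between 2274 and 4113 against WT, and from 0 to at most 604 for WT against VitC+. In the Tet femurs 0 niche factors passed under every alternative run. There limma called 0, 2, 2 and 2 of all genes for Tet1/2 cKO, Tet1 cKO, Tet2 cKO and the interaction, edgeR 0, 2, 2 and 2, and DESeq2 10, 24, 13 and 108.

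Directions that turned when 1 library was left out belonged to differences that had not passed. *Cxcl12* ran from -0.32 to 0.21, *Ebf3* from -0.0668 to 0.21 and *Foxc1* from -0.44 to 0.0908 against VitC+, *Lepr* from -0.18 to 0.46 against WT, and *Vcam1* from -0.27 to 0.25 and *Lepr* from -0.19 to 0.05 in Tet1/2 cKO, where *Lepr* was at 0.0532 without Ctrl replicate 1 and 0.00813 without Tet1/2 cKO replicate 2. Medians of the peak comparisons moved by less than 1.5-fold, though those of H3K27me3 and H3K9me3 went from 0.45 and 0.38 to 0 with a −log10 q of at least 2. Single values turned. H3K27me3 by the number of peaks was at -0.53 at *Ebf3* and -0.58 at *Cxcl12*, and at *Foxc1* it was at -0.42 with that limit. H3K9me3 with it was at -3.29 at *Ebf3*, -2.13 at *Il7* and -0.33 at *Pdgfra*, and with 10 kb on each side at -0.46 at *Ebf3* and -0.0029 at *Pdgfra*. The 5hmC of *Il7* in MC3T3-E1 cells was at -0.08 with CpG-bearing peaks alone and that of *Foxc1* in VitC+/- femurs at 0.07 by the number of peaks. Of the loci past 1.5-fold higher, 5 for H3K27me3 and 4 for H3K9me3, there were 3 and 1 with a −log10 q of at least 2, 3 and 3 with 10 kb on each side, and 1 and 5 by the number of peaks. The shares of all genes were not counted at these settings. The cause of these changes was not tested. *Il7* rested on an estimated 28 to 90 reads per VitC+/- library, and each peak comparison on 1 list per group.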
